A study of Homo sapiens with 8 samples.

Results

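The miR-29 family comprises 3 guide strands, hsa-miR-29a-3p, hsa-miR-29b-3p and hsa-miR-29c-3p, and 4 passenger strands, hsa-miR-29a-5p, hsa-miR-29b-1-5p, hsa-miR-29b-2-5p and hsa-miR-29c-5p. These 7 mature miRNAs were taken by name from the 2006 human miRNAs of a one-colour Agilent array built on miRBase release 19. A miRNA hairpin is cut into a duplex whose guide strand is loaded into an Argonaute protein and silences mRNAs that pair with its seed, while the passenger strand is mostly degraded. The miR-29 guides are best known for silencing collagens and other extracellular matrix genes, the de novo DNA methyltransferases and the anti-apoptotic gene MCL1, and they are often described as tumour suppressors in breast and other epithelia.

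The study asked which miRNAs respond to trastuzumab, a humanized antibody against the receptor HER2, in a pair of HER2+ breast cancer cell lines. BT474 cells, which the labels list as ER+, HER2+ and PR+, received 6 µg/mL trastuzumab or PBS for 144 h. SKBR3 cells, listed as ER-, HER2+ and PR+ in the labels although the study's text gives them as PR negative, received the same treatments for the same time. Each of the 4 groups was labelled with 2 biological replicates of 1 established line. By the study's methods the lines grew in different base media, both with serum, and BT474 also with bovine insulin. Cell line and medium therefore cannot be told apart. The array labelled SKBR3 PBS replicate 1 held the same values in all 62344 spots as BT474 PBS replicate 1, and its Spearman correlation was 0.933 to 0.984 with the other BT474 arrays and 0.740 to 0.761 with the SKBR3 arrays. The values below therefore come from 7 distinct arrays, with a lone PBS array for SKBR3.

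The mature sequences are shown because the guides differ at so few bases that their signals have to be read together. They are given 5′ to 3′ from RefSeq (GRCh38.p14), with the seed, bases 2 to 8, in capitals.
hsa-miR-29a-3p: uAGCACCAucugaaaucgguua
hsa-miR-29b-3p: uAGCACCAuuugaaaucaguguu
hsa-miR-29c-3p: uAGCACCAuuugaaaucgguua
hsa-miR-29a-5p: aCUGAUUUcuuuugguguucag
hsa-miR-29b-1-5p: gCUGGUUUcauauggugguuuaga
hsa-miR-29b-2-5p: cUGGUUUCacaugguggcuuag
hsa-miR-29c-5p: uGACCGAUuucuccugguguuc

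All 3 guides carried the seed AGCACCA, and the 4 passengers carried 4 different seeds. No other mature miRNA of the RefSeq table shared any of these seeds. Counted from the 5′ end, hsa-miR-29a-3p and hsa-miR-29c-3p were identical at 21 of 22 positions and differed by C10U. The change from hsa-miR-29b-3p to hsa-miR-29c-3p was A18G, G21U and U22A, with 19 of 22 positions identical. The sequences of the array's probes were not used here, so signal that one guide gives on the probes of another was not tested, and the guides are not independent of each other. The passengers were less alike, and at the best alignment hsa-miR-29b-1-5p and hsa-miR-29b-2-5p shared 20 of 22 positions and hsa-miR-29a-5p and hsa-miR-29c-5p 17 of 20.

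The hairpins lie in a pair of clusters. MIR29A (chr7:130876747-130876810) and MIR29B1 (chr7:130877459-130877539) lie on the minus strand with 648 bases between them and overlap no other annotated gene. MIR29C (chr1:207801852-207801939) and MIR29B2 (chr1:207802443-207802523) lie on the minus strand with 503 bases between them, inside the long non-coding RNA gene MIR29B2CHG. The mature hsa-miR-29b-3p is identical from both clusters, so its signal cannot be assigned to either, whereas hsa-miR-29a-3p comes only from chromosome 7 and hsa-miR-29c-3p only from chromosome 1.

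Across the 7 arrays, 201 to 256 of the 2006 human miRNAs were detected per array, and 173 were detected on all 7. All arrays lay on 1 slide and were read in 1 scan. The PBS arrays filled slide row 2 and the trastuzumab arrays row 1, so treatment and slide row cannot be told apart. The BT474 arrays lay in slide columns 1 and 2 and the distinct SKBR3 arrays in columns 3 and 4. Cell line and slide column therefore cannot be told apart either. The epithelial miRNAs hsa-miR-200c-3p and hsa-miR-141-3p were detected on all 7 arrays, while hsa-miR-200a-3p, hsa-miR-200b-3p and hsa-miR-429 were detected on the 4 BT474 arrays and on none of the 3 SKBR3 arrays. The mesenchymal (hsa-miR-143-3p and hsa-miR-145-5p), blood (hsa-miR-142-3p and hsa-miR-223-3p), neuronal and liver markers were detected on none. The endothelial marker hsa-miR-126-3p was detected on 3 of the 4 BT474 arrays, at signals of 51.6 to 88.5, and on no SKBR3 array. Of the muscle markers, hsa-miR-1 was detected on the 4 BT474 arrays alone and hsa-miR-133a on no array. Of the miRNAs of the ERBB2 locus, hsa-miR-4728-3p was detected on the 2 BT474 PBS arrays and hsa-miR-4728-5p on the 3 SKBR3 arrays. The replicates were close, with a median residual SD of 0.10 on the log2 scale over the 173 miRNAs detected on all 7 arrays, from 3 residual degrees of freedom.

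Detection separated the guides from the passengers. The 3 guides were detected on all 7 arrays, hsa-miR-29c-5p on the 4 trastuzumab arrays alone, and the other 3 passengers on none. Of all 2006 human miRNAs, 307 were detected on at least 1 array. Each miRNA was read by 30 spots per array, spread over 2 probes for each guide and hsa-miR-29c-5p and over 4 probes for the other passengers. The guides' spots were well above background throughout, except 1 spot of hsa-miR-29b-3p on SKBR3 trastuzumab replicate 2, and none was saturated.

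**Figure D1:**
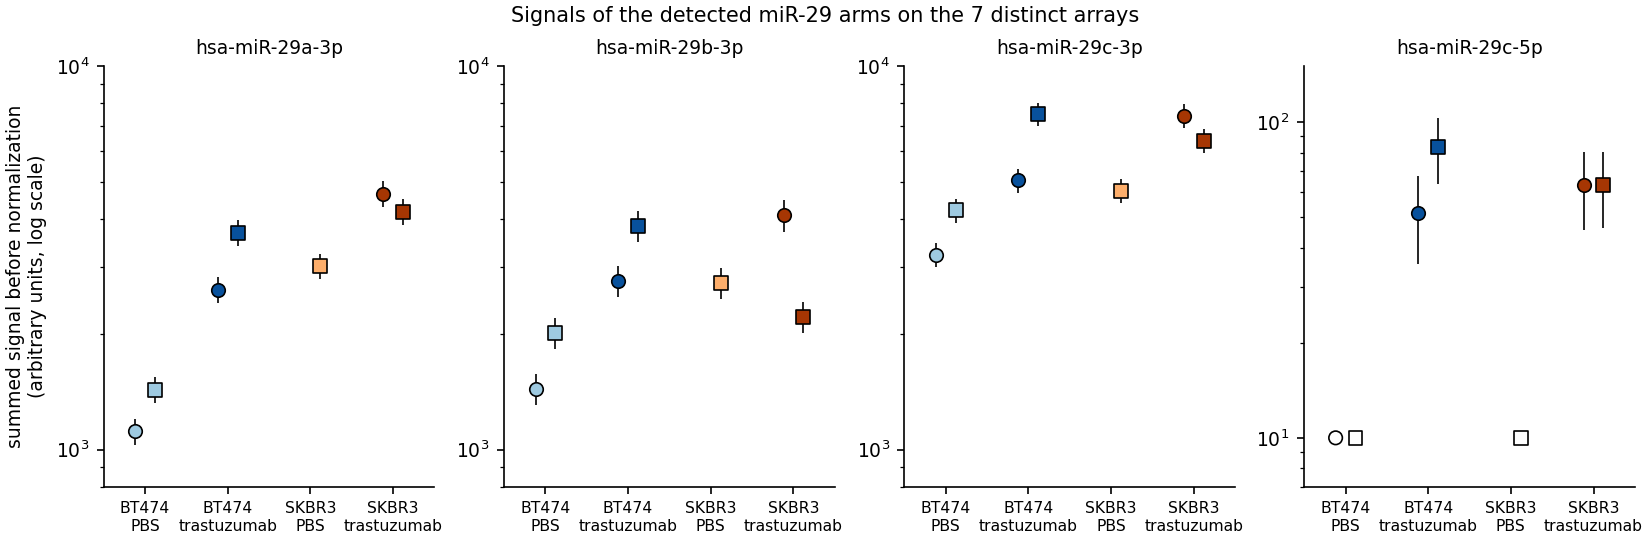
Summed signal of the 4 detected miR-29 arms on each of the 7 distinct arrays before normalization (log scale, arbitrary units), grouped by cell line and treatment, with circles for replicate 1, squares for replicate 2 and bars for the scanner software's signal error. Open symbols at the floor of 10 mark arrays on which the miRNA was not detected; in BT474 each guide lies higher on both trastuzumab arrays than on both PBS arrays.

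In BT474, hsa-miR-29a-3p and hsa-miR-29c-3p rose after 144 h of trastuzumab, and the value of hsa-miR-29b-3p lay in the same direction without passing the test. The summed signal of hsa-miR-29a-3p was 1116 and 1434 with PBS and 2614 and 3679.52 with trastuzumab, before any normalization. In such unnormalized values 121 of the 173 miRNAs detected on all 7 arrays had a higher mean with trastuzumab, at a median log2 difference of 0.22. For hsa-miR-29a-3p the groups did not overlap, and the trastuzumab arrays were the higher ones. After quantile normalization its log2 level was 10.05 and 10.12 with PBS and 10.89 and 11.06 with trastuzumab, a 1.86-fold rise (95% interval 1.59 to 2.17; log2 difference 0.89, SE 0.078, limma adjusted p = 0.00606). Its pair of probes gave almost the same unnormalized log2 difference, 1.28 and 1.30. By the study's methods the same amount of total RNA was labelled from each sample, so these signals give no amount per cell. All values are relative to the other miRNAs of the array.

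The guide of the chromosome 1 cluster had a smaller difference. The signal of hsa-miR-29c-3p was 3224 and 4205 with PBS and 5039 and 7495 with trastuzumab, again without overlap. Its normalized log2 level was 11.56 in both PBS replicates and 12.15 and 12.27 with trastuzumab, a 1.57-fold rise (95% interval 1.40 to 1.76; log2 difference 0.65, SE 0.058, limma adjusted p = 0.00606). The equal PBS levels, from signals of 3224 and 4205, came from quantile normalization, which gives the same value to the same rank. On the SKBR3 trastuzumab arrays the levels were equal too, with an SD of 0.0. The SE of hsa-miR-29c-3p may therefore understate the spread between replicates in every comparison. Its call in BT474 also depended on the scaling. When each array was scaled to its 75th percentile over the 173 miRNAs detected on all arrays, the difference was 0.29 (limma adjusted p = 0.133). That scaling put the median of these 173 miRNAs at -0.23, against 0.00 after quantile normalization. For hsa-miR-29a-3p the same scaling gave 0.84 (limma adjusted p = 0.0118).

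The guide made by both clusters was the most variable. The signal of hsa-miR-29b-3p was 1442 and 2015 with PBS and 2749.97 and 3833 with trastuzumab. The groups did not overlap, but the log2 difference of 0.65 had an SE of 0.27 and did not pass the test (limma adjusted p = 0.191). The spread that entered this SE came mostly from the SKBR3 trastuzumab arrays, described below.

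Of the 3 guides, 2 were called higher in BT474 at an adjusted p under 0.05. Of the 173 miRNAs detected on all 7 arrays 15.6% were called in that direction, and of all 305 tested 13.8%. By an unadjusted p under 0.05 with a fold above 2, the thresholds of the study's methods, no guide was called, and 6.23% of the 305 were called higher that way. Quantile normalization split the calls over all miRNAs into 42 higher and 32 lower, and the 75th percentile scaling into 22 higher and 53 lower. Without any scaling between arrays no guide was called, and the differences of hsa-miR-29a-3p and hsa-miR-29c-3p were 1.29 (limma adjusted p = 0.0599) and 0.74 (limma adjusted p = 0.213). In the authors' deposited log2 values no member passed (hsa-miR-29a-3p 1.02, limma adjusted p = 0.337), and 0 of all 2006 miRNAs did. A muscle miRNA, hsa-miR-1, moved with the same contrast, from 127 and 173 with PBS to 286 and 382 with trastuzumab (log2 difference 1.01, limma adjusted p = 0.00606), while hsa-miR-133a, the other muscle marker, was detected on no array. Its part in the result was not tested.

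In SKBR3, none of the guides passed the test. The signal of hsa-miR-29a-3p was 3014 on the PBS array and 4656 and 4175 on the trastuzumab arrays, both above the PBS array. Its normalized log2 level was 12.47 with PBS and 12.66 and 12.69 with trastuzumab (log2 difference 0.21, 95% interval -0.06 to 0.48, limma adjusted p = 0.316). For hsa-miR-29c-3p the signal was 4735 with PBS and 7425 and 6400.02 with trastuzumab. The normalized difference was 0.14 (95% interval -0.06 to 0.34, limma adjusted p = 0.370). With 1 PBS array the spread in this comparison came from the other groups. Without normalization 161 of the 173 miRNAs detected on all 7 arrays were higher with trastuzumab in SKBR3, at a median log2 difference of 0.36.

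The trastuzumab replicates of SKBR3 disagreed on hsa-miR-29b-3p. Its signal was 2726 on the PBS array, 4088 on trastuzumab replicate 1 and 2221 on replicate 2, so the PBS array lay between them. Both probes showed it, with processed signals of 18110 and 9821 on replicates 1 and 2 for the brighter probe and 1166 and 653 for the dimmer one. The log2 difference from PBS was -0.12 (95% interval -1.05 to 0.81, limma adjusted p = 1.0), and without replicate 2 it was 0.21 (limma adjusted p = 0.720). The other guides showed no such gap between these replicates, at 4656 and 4175 for hsa-miR-29a-3p and 7425 and 6400.02 for hsa-miR-29c-3p. So 0 of the 3 guides were called in SKBR3 at an adjusted p under 0.05. Of the 173 miRNAs detected on all 7 arrays 5.2% were called higher, and of all 305 tested 6.23%. By limma's unadjusted p under 0.05 also 0 guides passed, against 69 of the 305 in either direction. An unadjusted p under 0.05 with a fold above 2 called no guide either, and 6.89% of the 305 higher. Over all miRNAs 19 were called higher and 17 lower, and 26 and 7 with the 75th percentile scaling.

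Whether the lines differed in their response was tested as the BT474 change minus the SKBR3 change. The difference was 0.68 for hsa-miR-29a-3p (95% interval 0.33 to 1.03) and 0.51 for hsa-miR-29c-3p (95% interval 0.25 to 0.77), each at a limma adjusted p of 0.0410. For hsa-miR-29b-3p it was 0.77 (limma adjusted p = 0.324). So 2 of the 3 guides were called, where 8.09% of the 173 miRNAs detected on all 7 arrays and 9.84% of all 305 were called in that direction. Neither call held with the replicate number as a block in limma (adjusted p = 0.0803 for hsa-miR-29a-3p and 0.119 for hsa-miR-29c-3p). With the 75th percentile scaling the values were 0.47 (limma adjusted p = 0.120) and -0.076 (limma adjusted p = 0.748), and the calls over all miRNAs went from 30 higher and 19 lower to 16 higher and 35 lower. The comparison rests on the lone SKBR3 PBS array, and neither call held when either BT474 PBS array or either SKBR3 trastuzumab array was left out (limma adjusted p = 0.0898 to 0.134 for hsa-miR-29a-3p and 0.0761 to 0.106 for hsa-miR-29c-3p).

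The larger contrast lay between the lines. After quantile normalization all 3 guides were lower in BT474 than in SKBR3 over both treatments. hsa-miR-29a-3p was 4.11-fold higher in SKBR3 (95% interval 3.64 to 4.64; log2 difference, BT474 minus SKBR3, -2.04, SE 0.062, limma adjusted p = 6.13e-05). Its normalized log2 level was 10.05 to 11.06 on the 4 BT474 arrays and 12.47 to 12.69 on the 3 SKBR3 arrays. For hsa-miR-29c-3p SKBR3 was 2.56-fold higher (log2 difference -1.36, SE 0.046, limma adjusted p = 8.14e-05), with levels of 11.56 to 12.27 against 13.17 to 13.31. For hsa-miR-29b-3p it was 2.58-fold higher (log2 difference -1.37, SE 0.21, limma adjusted p = 0.00688), with 10.34 to 11.22 against 11.77 to 12.43. No guide's levels overlapped between the lines, and all 3 guides were called lower in BT474. That direction was common, with 50.3% of the 173 miRNAs detected on all 7 arrays and 35.1% of all 305 called lower.

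The size of this contrast depended on the scaling. SKBR3 arrays detected 201 to 218 miRNAs and BT474 arrays 247 to 256, and quantile normalization gives both the same distribution. Over the 173 miRNAs detected on all 7 arrays the median difference between the lines was -0.42 after quantile normalization, -0.20 after the 75th percentile scaling and 0.71 with no scaling. The guides lay below that median under each scaling. Under the 75th percentile scaling the differences were -1.79, -1.19 and -1.17 for hsa-miR-29a-3p, hsa-miR-29b-3p and hsa-miR-29c-3p. With no scaling they were -0.88 (limma adjusted p = 0.0174), -0.28 (limma adjusted p = 0.480) and -0.26 (limma adjusted p = 0.365), and the signals of all 3 guides then overlapped between the lines.

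**Figure D2:**
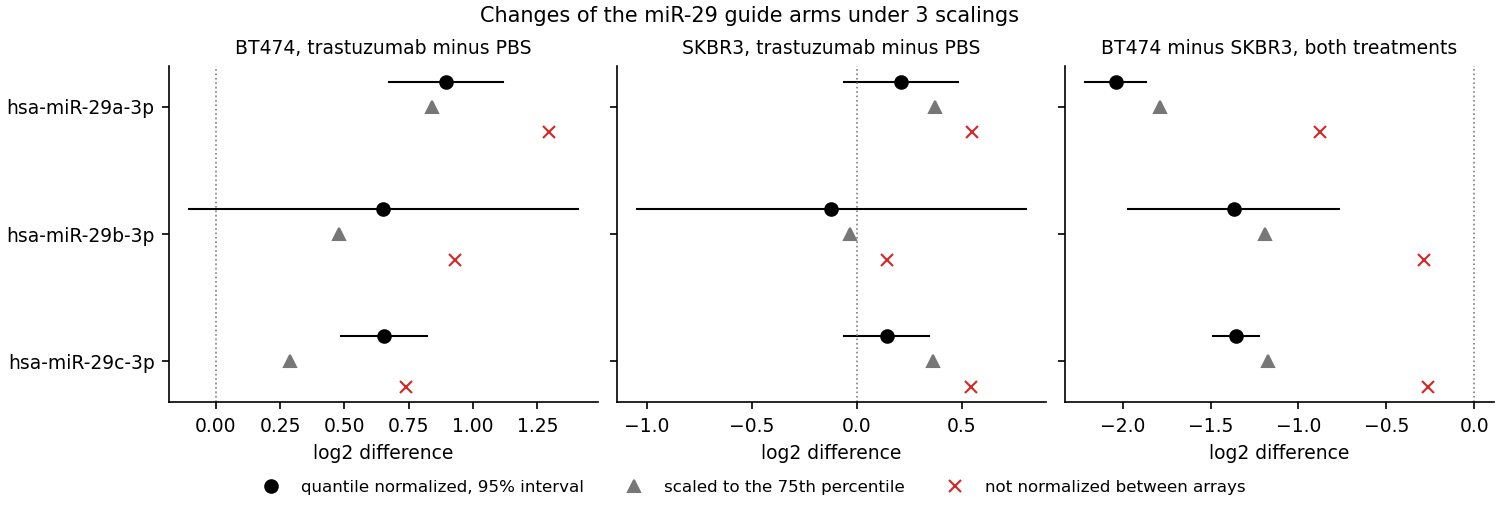
Log2 differences of the 3 guides for trastuzumab minus PBS in BT474, trastuzumab minus PBS in SKBR3 and BT474 minus SKBR3 over both treatments. Circles with lines are the quantile normalized differences with 95% intervals from limma, triangles use the 75th percentile scaling and crosses no scaling between arrays. Each guide lies above 0 in BT474 and below 0 between the lines under every scaling, but hsa-miR-29c-3p moves from 0.65 to 0.29 in BT474 and from -1.36 to -0.26 between the lines.

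After trastuzumab alone, with 2 arrays in each line, the guides were again lower in BT474 after quantile normalization. The log2 difference was -1.70 for hsa-miR-29a-3p (limma adjusted p = 0.000277), -1.10 for hsa-miR-29c-3p (limma adjusted p = 0.000408) and -0.98 for hsa-miR-29b-3p (limma adjusted p = 0.0381). All 3 were called, where 48% of the 173 miRNAs detected on all 7 arrays and 32.5% of all 305 were called lower in BT474. hsa-miR-29c-5p, detected on these 4 arrays, lay at -1.39 (limma adjusted p = 0.00597), but at 0.053 with no scaling. Its unnormalized signals were dim and overlapped between the lines. It was not called with the mean processed spot signal (-0.45, limma adjusted p = 0.288) or with normexp background correction (-0.25, limma adjusted p = 0.0509). The call for hsa-miR-29b-3p was lost with the replicate number as a block (limma adjusted p = 0.0821) and when any of 5 arrays was left out (adjusted p = 0.0695 to 0.148), and held without SKBR3 PBS replicate 2 or SKBR3 trastuzumab replicate 2. With no scaling between arrays no guide was called, and hsa-miR-29b-3p lay at 0.11.

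A scaling that multiplies a whole array leaves the ratios between its guides as they are. Signals of different probes cannot be set against each other as amounts, so only the change of a ratio between arrays was read. The log2 ratio of hsa-miR-29c-3p to hsa-miR-29a-3p was 1.51 and 1.44 on the BT474 PBS arrays, 1.26 and 1.21 on the BT474 trastuzumab arrays and 0.71, 0.66 and 0.62 on the SKBR3 arrays. The lines did not overlap, and their means differed by 0.69 (0.62 with no scaling between arrays, where the ratios were 0.95 to 1.55 in BT474 and 0.62 to 0.67 in SKBR3). On these arrays the guide of the chromosome 7 cluster was thus lower in BT474, relative to the guide of the chromosome 1 cluster, than in SKBR3. The ratio of hsa-miR-29b-3p to hsa-miR-29a-3p did not overlap either, from 0.13 to 0.47 in BT474 and from -0.92 to -0.23 in SKBR3, a difference of 0.73. The -0.92 came from SKBR3 trastuzumab replicate 2. Without that array the difference was 0.50, and that of hsa-miR-29c-3p to hsa-miR-29a-3p was 0.66. With all arrays both ratios gave an exact permutation p of 0.0571 (two-sided, adjusted over the 3 ratios 0.0857), which is the smallest p that 4 arrays against 3 allow. A p under 0.05 could therefore not be reached, and the permutations took no account of treatment. The ratio of hsa-miR-29c-3p to hsa-miR-29b-3p differed by -0.03 (exact permutation p = 0.914) and overlapped. Within BT474 the ratio of hsa-miR-29c-3p to hsa-miR-29a-3p was lower on both trastuzumab arrays than on both PBS arrays.

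**Figure D3:**
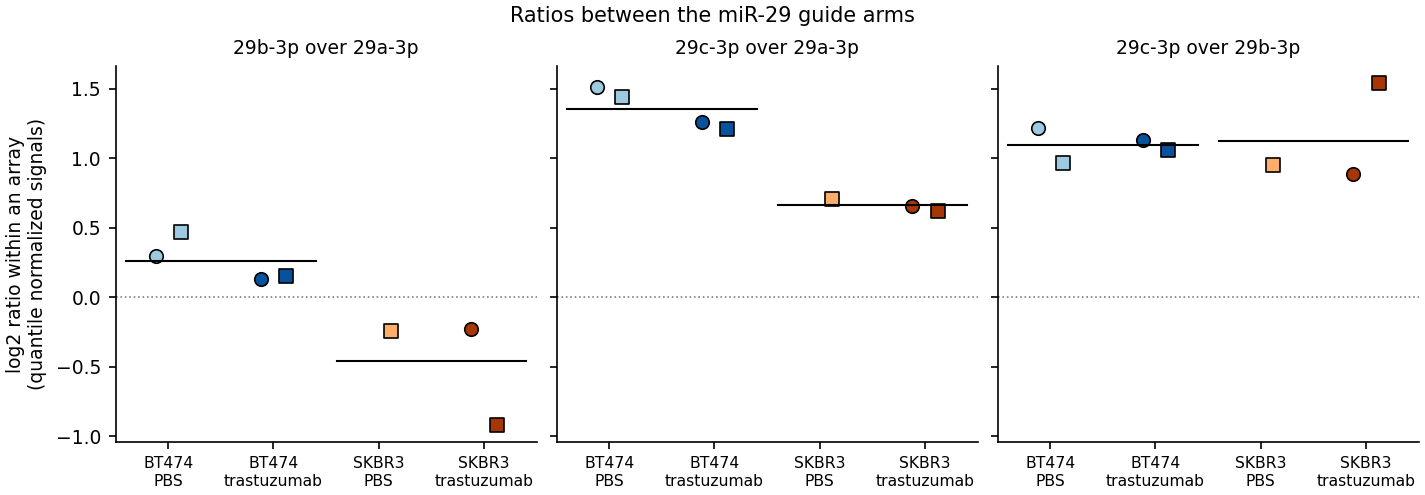
Log2 ratios between the miR-29 guides within each array (quantile normalized signals), by cell line and treatment, with circles for replicate 1, squares for replicate 2 and horizontal lines for the mean of each cell line. The ratio of hsa-miR-29c-3p to hsa-miR-29a-3p is 1.21 to 1.51 in BT474 and 0.62 to 0.71 in SKBR3.

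hsa-miR-29c-5p, the passenger of the MIR29C hairpin, was not detected on any of the 3 PBS arrays and was detected on all 4 trastuzumab arrays. Its summed signal there was 51.5 and 83.4 in BT474 and 63.1 and 63.2 in SKBR3. It entered the test only through the trastuzumab arrays, and its PBS values were all set to the floor of 10, so a difference in this direction was fixed by the filter and the floor. The limma adjusted p of 0.00825 in BT474 and 0.00628 in SKBR3 is therefore given as a description of the detection calls, with no fold. In a fit on the arrays of SKBR3 alone the adjusted p from limma was 0.126. Leaving out BT474 PBS replicate 1, BT474 PBS replicate 2 or BT474 trastuzumab replicate 2 put it past 0.05 in BT474 (limma adjusted p = 0.0731, 0.0614 and 0.0673), and leaving out BT474 PBS replicate 1 did so in SKBR3 (limma adjusted p = 0.0555).

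The spots beneath these detection calls were dim. Only 22 of the 210 spot readings of hsa-miR-29c-5p over the 7 arrays were well above background, 21 of them on the second probe. On that probe the mean processed signal was 215 and 224 in BT474 with PBS and 243 and 393 with trastuzumab. In SKBR3 it was 193 with PBS and 297 and 298 with trastuzumab, and 3 of 15 spots were well above background on each of these 3 arrays. The trastuzumab arrays were thus the higher ones on the second probe in both lines, while on the first probe, at 57.7 to 114, the log2 differences were -0.36 in BT474 and -0.03 in SKBR3. With the mean processed signal of all spots in place of the summed signal, the log2 differences were 0.37 in BT474 (limma adjusted p = 0.580) and -0.070 in SKBR3 (limma adjusted p = 1.0), and it passed the test in neither line.

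**Figure D4:**
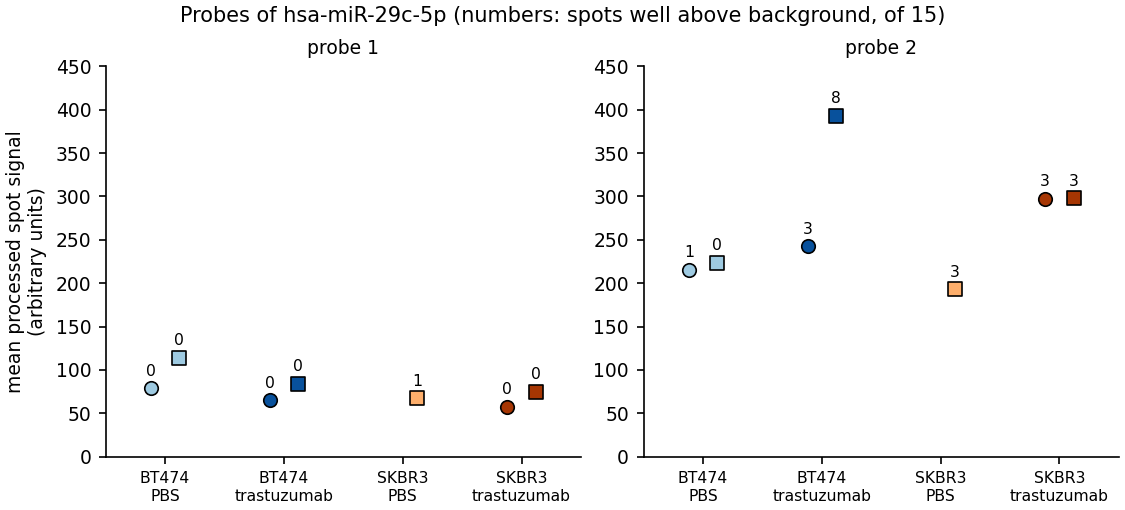
Mean processed spot signal (arbitrary units) of the 2 probes of hsa-miR-29c-5p on each of the 7 arrays, with circles for replicate 1, squares for replicate 2 and the number of the 15 spots that were well above background beside each point. In BT474, probe 2 is at 215 and 224 with PBS and at 243 and 393 with trastuzumab, and probe 1 lies at 57.7 to 114 with no such order.

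The other passengers could not be measured. Of 210 spot readings each, 1 was well above background for hsa-miR-29a-5p, 3 for hsa-miR-29b-1-5p and 0 for hsa-miR-29b-2-5p. The mean processed signals of their probes ran from -15.5 to 109, from -30.2 to 160 and from -34.4 to 88.8, so they had no level or change to compare. In the authors' deposited values, which list a number for every probe, the ratio of trastuzumab to PBS over the 4 probes of hsa-miR-29b-2-5p still ran from 1.02 to 3.34 in BT474.

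Guide and passenger could be compared within a hairpin only for MIR29C, and only on the 4 trastuzumab arrays. The log2 ratio of hsa-miR-29c-3p to hsa-miR-29c-5p was 7.11 and 7.01 in BT474 and 7.01 and 6.54 in SKBR3. The difference of 0.29 (SE 0.21, limma adjusted p = 0.284 over 9 hairpins with both arms detected on these arrays) did not pass, and 1 of the 9 hairpins did, 11.1%. Its direction turned with the 75th percentile scaling (-0.22), with the mean processed spot signal (-0.65) and without SKBR3 trastuzumab replicate 2 (-0.058).

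The miRNAs whose pattern over the 7 arrays was most like that of the guides were the same for hsa-miR-29a-3p and hsa-miR-29c-3p. Across the 173 miRNAs detected on all 7 arrays, the Pearson correlation of normalized log2 levels with hsa-miR-29a-3p was 0.995 for hsa-miR-130a-3p, 0.983 for hsa-let-7e-5p and 0.970 for hsa-miR-30a-5p. With hsa-miR-29c-3p it was 0.992, 0.988 and 0.976 for these miRNAs. The guides themselves correlated at 0.999 (hsa-miR-29a-3p with hsa-miR-29c-3p) and 0.960 (hsa-miR-29a-3p with hsa-miR-29b-3p). The 7 arrays share 2 lines and 2 treatments, so the 7 points are not independent. hsa-miR-130a-3p, the closest, had a much larger step, with a log2 difference between the lines of -5.20 (limma adjusted p = 2.55e-05) and a change of 1.66 with trastuzumab in BT474 (limma adjusted p = 0.00606). For hsa-miR-30a-5p these values were -1.29 (limma adjusted p = 7.29e-05) and 0.99 (limma adjusted p = 0.00263). hsa-let-7e-5p differed between the lines by -0.47 (limma adjusted p = 0.00215) and by 0.25 in BT474 (limma adjusted p = 0.0598). hsa-miR-29b-3p stood nearest to hsa-miR-30e-5p (0.979), hsa-miR-423-5p (0.976) and hsa-miR-130a-3p (0.960). In SKBR3 none of these 5 miRNAs passed the test of trastuzumab against PBS.

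A list of 7 other miRNAs known to target DNA methyltransferases was read beside the guides. Of the 7, 5 were detected on at least 1 array and 4 on all 7. In BT474 0 of the 5 tested were called higher and 1 lower, hsa-miR-342-3p, at a normalized log2 difference of -0.44 (limma adjusted p = 0.0322). Its signals before normalization overlapped, at 1965 and 2516 with PBS and 1975 and 2358 with trastuzumab. Over all 305 miRNAs 13.8% were called higher and 10.5% lower, so counts of 0 and 1 of 5 do not set the list apart. In SKBR3 0 rose and 1 fell, hsa-miR-148a-3p, which targets DNMT1 and DNMT3B, with a log2 difference of -0.69 (limma adjusted p = 0.0257), where 6.23% and 5.57% of the 305 were called higher and lower. Between the lines 3 of the 5 were called higher in BT474 and 1 lower, where 33.4% and 35.1% of the 305 were. hsa-miR-342-3p (2.94), hsa-miR-148a-3p (1.06) and hsa-miR-148b-3p (0.71) were higher in BT474 and hsa-miR-185-5p (-0.45) lower, at limma adjusted p of 2.26e-05, 0.000360, 0.000337 and 0.0132. The median over the 5 tested was 1.06, against 0.00 over all 305, and the median of the 3 guides was -1.37.

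Hairpins within 2 Mb of the miR-29 clusters were read in the same way. On the chromosome 1 side, 1 of 3 mature miRNAs of the array was detected, hsa-miR-205-5p, on the 4 BT474 arrays alone. Its signal was 111 in both PBS replicates and 234 and 269.861 with trastuzumab, a log2 difference of 1.11 (limma adjusted p = 0.00470). On the chromosome 7 side, 6 of 8 were detected and 3 on all 7 arrays, hsa-miR-96-5p, hsa-miR-183-5p and hsa-miR-335-5p. In BT474 their log2 differences with trastuzumab were 0.15, -0.27 and 0.13, and 0 of the 6 tested rose and 1 was called lower, hsa-miR-182-3p, at 27.8 and 38.3 with PBS and not detected with trastuzumab, which entered the test only through the PBS arrays. These counts lie near the 13.8% and 10.5% of all 305. Between the lines 4 of these 6 were called higher in BT474 and 1 lower, where 33.4% and 35.1% of the 305 were. Among the higher, hsa-miR-182-3p and hsa-miR-183-3p were detected on BT474 arrays alone. hsa-miR-96-5p (1.30, limma adjusted p = 6.50e-05) and hsa-miR-183-5p (1.53, limma adjusted p = 7.70e-05) were higher too. hsa-miR-335-5p (-0.82, limma adjusted p = 0.00415) was lower in BT474, as the guides were.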

How the data were processed

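Total RNA from 8 labelled samples was hybridized to one-colour Agilent miRNA arrays. The scanner files deposited by the authors hold spot intensity values from Feature Extraction 11.5.1.1, with a summed signal and a detection call per miRNA. The authors' separate log2 values per probe, quantile normalized by them within each cell line, served as an alternative, and per the file their medians were 5.34 to 5.35 in BT474 and 5.28 in SKBR3. The summed signals of 2006 human miRNAs were quantile normalized over the 7 distinct arrays, set to a floor of 10 and taken to log2. The 305 miRNAs above the floor on at least 1 array were tested with 1 mean per group in limma 3.58.1 (R 4.3.3; Python 3.11.15), with Benjamini-Hochberg adjustment over all of them at 0.05, after a check on simulated data. On a miRNA at the floor the group has no spread of its own. An array has no counting depth, and the number of arrays limits the precision; the labels call the replicates biological, and p-values measure only the spread between these arrays.

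Same-numbered replicates deviated together from their group means (correlations 0.30, 0.15 and 0.12 over miRNAs in the 3 pairs of groups with both numbers). The replicate number was therefore taken to pair the arrays, from the data and not from the labels. In BT474 replicate 1 lay in slide column 2 and replicate 2 in column 1 under both treatments. Pairing and slide column cannot be told apart there. The members, the named miRNAs (all 7 members, the 3 miRNAs most correlated with each guide, and the methyltransferase and neighbour lists where detected on all 7 arrays), the lists and the cell type markers were chosen with earlier results of these data known. hsa-miR-205-5p and hsa-miR-1 were named after their values were seen. Alternatives covered scaling, floor, detection, spot summary, background correction, samples and test.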

Additional observations from a re-analysis of the deposited data

Results flagged for a closer look

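After quantile normalization the response to trastuzumab differed between BT474 and SKBR3 for hsa-miR-29a-3p and hsa-miR-29c-3p. The BT474 change minus the SKBR3 change was 0.68 for hsa-miR-29a-3p and 0.51 for hsa-miR-29c-3p on the log2 scale, by the interaction contrast of limma (adjusted p = 0.0410 for each). With the 75th percentile scaling these values were 0.47 (limma adjusted p = 0.120) and -0.076 (limma adjusted p = 0.748), and with no scaling 0.74 (limma adjusted p = 0.459) and 0.20 (limma adjusted p = 0.879). Neither passed with the replicate number as a block (limma adjusted p = 0.0803 and 0.119) or without BT474 PBS replicate 1, BT474 PBS replicate 2, SKBR3 trastuzumab replicate 1 or SKBR3 trastuzumab replicate 2 (limma adjusted p = 0.0761 to 0.134). The contrast rests on a lone SKBR3 PBS array. The unnormalized signals of both guides were higher on all 4 trastuzumab arrays than on all PBS arrays of the same line. That direction was common without normalization. Of the 173 miRNAs detected on all 7 arrays, 121 in BT474 and 161 in SKBR3 had a higher mean with trastuzumab, so it does not set the guides apart.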

How the results depend on the processing

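The values are relative to the other miRNAs of each array, SKBR3 has 1 distinct PBS array, and a dim passenger strand can change its detection with a few spots. The counts of members below include hsa-miR-29c-5p, which entered the tests only through the trastuzumab arrays. Some settings called few miRNAs of any kind. The deposited values gave 0 calls of 2006 miRNAs in either line. The methods' t-test after Benjamini-Hochberg called 3 of 285 in BT474 and 1 of 285 in SKBR3. In BT474 the 3 members called became 1 without scaling between arrays (chosen after seeing the data), with the mean processed spot signal, with all 8 labelled arrays, at the study's thresholds and with the methods' t-test at those thresholds, became 0 in the deposited values and with the methods' t-test after Benjamini-Hochberg, and ranged from 2 to 3 when arrays were left out. In SKBR3 the 1 member called was hsa-miR-29c-5p, so this count describes its detection calls and covers no guide. When only miRNAs detected on all 7 arrays were tested, it was not in the test and the count was 0. The count also became 0 with the spot mean, with normexp, in the deposited values and on the arrays of that line alone. It was 0 with the methods' t-test after Benjamini-Hochberg as well, and ranged from 0 to 1 when arrays were left out. Between the lines the 4 members called became 1 without scaling and 0 with all 8 arrays (3 to 4 when arrays were left out), and after trastuzumab they became 0 without scaling, 1 with all 8 arrays and 2 with the spot mean (3 to 4). The 2 members called in the difference between responses became 0 with the 75th percentile scaling, without scaling, with the spot mean, with all 8 arrays and with the replicate block, and ranged from 0 to 2 when arrays were left out.

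The replicate block changed the member calls given beside the results and no other, while over all miRNAs the calls went from 74 to 49 in BT474, from 36 to 18 in SKBR3 and from 49 to 22 for the difference between responses.

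Signs turned as follows, in log2. In SKBR3, hsa-miR-29b-3p was 0.14 without scaling, 0.81 with all 8 arrays and from -0.46 to 0.21 when arrays were left out (0.21 without trastuzumab replicate 2), and hsa-miR-29c-5p -0.070 with the spot mean and -0.31 in the deposited values. Between the lines hsa-miR-29c-5p was 0.027 without scaling, and after trastuzumab hsa-miR-29b-3p was 0.11 and hsa-miR-29c-5p 0.053. In the difference between responses, hsa-miR-29a-3p, hsa-miR-29b-3p and hsa-miR-29c-3p were -0.53, -0.18 and -0.29 with all 8 arrays, hsa-miR-29c-3p was -0.076 with the 75th percentile scaling, and hsa-miR-29c-5p was 0.053 without scaling, 0.44 with the spot mean and 0.042 with normexp. The difference in the ratio of hsa-miR-29c-3p to hsa-miR-29b-3p ran from -0.16 to 0.16 when arrays were left out, and that of hsa-miR-29c-3p to hsa-miR-29c-5p from -0.058 to 0.49, at -0.22 with the 75th percentile scaling and -0.65 with the spot mean. The cause of these changes was not tested. The deposited values were not run between the lines, since the authors' values were scaled within each line, and the comparison of arms over all 7 arrays could not be fitted, since no passenger strand was detected on all of them.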
